A study of Rattus norvegicus with 13 samples.

Results

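The genes described here are 10 members of the mesenchymal programme: the transcription factors Twist1, Twist2, Zeb1, Zeb2, Snai1 and Prrx1, the cadherins Cdh2 (N-cadherin) and Cdh11 (OB-cadherin), the intermediate filament gene Vim (vimentin) and the surface glycoprotein gene Thy1 (CD90). They were chosen by name. All 10 of 10 were on the rat array, among 14217 genes in all, through 21 probe sets, and each gene was represented by the probe set of highest mean over the 13 arrays. Twist, Zeb and Snai proteins bind E-box DNA and are known in development and carcinoma for repressing E-cadherin and other epithelial junction genes, while mesenchymal cells take up N-cadherin, cadherin 11 and vimentin. Prrx1 is a homeobox factor of limb and craniofacial mesenchyme. In the liver and bile ducts Thy1, vimentin and several of the factors are textbook marks of portal fibroblasts, stellate cells and cancer-associated fibroblasts rather than of cholangiocytes, the epithelial cells of the bile duct.

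The study set whole tumours beside 2 cell lines derived from such tumours, grown apart and together. The tumours (4 arrays) were intrahepatic cholangiocarcinomas of young adult male Fischer 344 rats that arose from BDEsp cells, a spontaneously transformed rat cholangiocyte line placed in the bile duct. The co-cultures were a single array labelled epithelial cells in co-culture and a single array labelled fibroblastic cells in co-culture. The fibroblastic line (4 arrays) is clone E4, an α-SMA positive cancer-associated fibroblast line, and the epithelial line (3 arrays) is clone H10, a cholangiocarcinoma line. All carry the Fischer 344 background. Culture was in rat tail collagen I gels, and the plating density of fibroblastic cells in co-culture varied, with the density behind these 2 arrays not given in the labels. Each line is 1 clone, and nothing in the labels says whether replicate arrays came from separate cultures or animals, so p-values measure the spread between these arrays, which may be technical.

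Both co-culture arrays carried markers of both lines, but not every fibroblast marker stood high on them. Krt19, a keratin of bile duct epithelium, read 13.49 on the epithelial co-culture array and 13.21 on the fibroblastic co-culture array, against 4.01 to 4.29 in the fibroblastic line and 13.90 to 14.24 in the epithelial line, in log2 units of the deposited normalised expression. Col1a1, the collagen I chain of fibroblasts, read 12.61 and 13.04 on the same co-culture arrays, against 13.43 to 13.96 in the fibroblastic line and 5.57 to 5.85 in the epithelial line. The labels name 1 cell type for each co-culture array, so every difference between a co-culture array and a line below is a difference between an array with markers of both cell types and an array with markers of 1. The tumours held further cell types: 11 macrophage markers averaged 9.61 to 9.94 in tumours against 4.62 to 4.96 on the 9 culture arrays, and 9 hepatocyte markers averaged 13.29, 5.53, 11.69 and 13.38 in tumours 1 to 4 against 4.58 to 5.20 in culture. Lymphocyte markers averaged 6.86 to 7.27 in tumours and endothelial markers 6.50 to 7.61, against at most 5.32 and 4.83 on any culture array. Ptprc, Cd3e and Pecam1, which mark leukocytes, T cells and endothelium, were all called higher in tumours than in either line. Precision is limited by how few arrays there are.

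**Figure D1:**
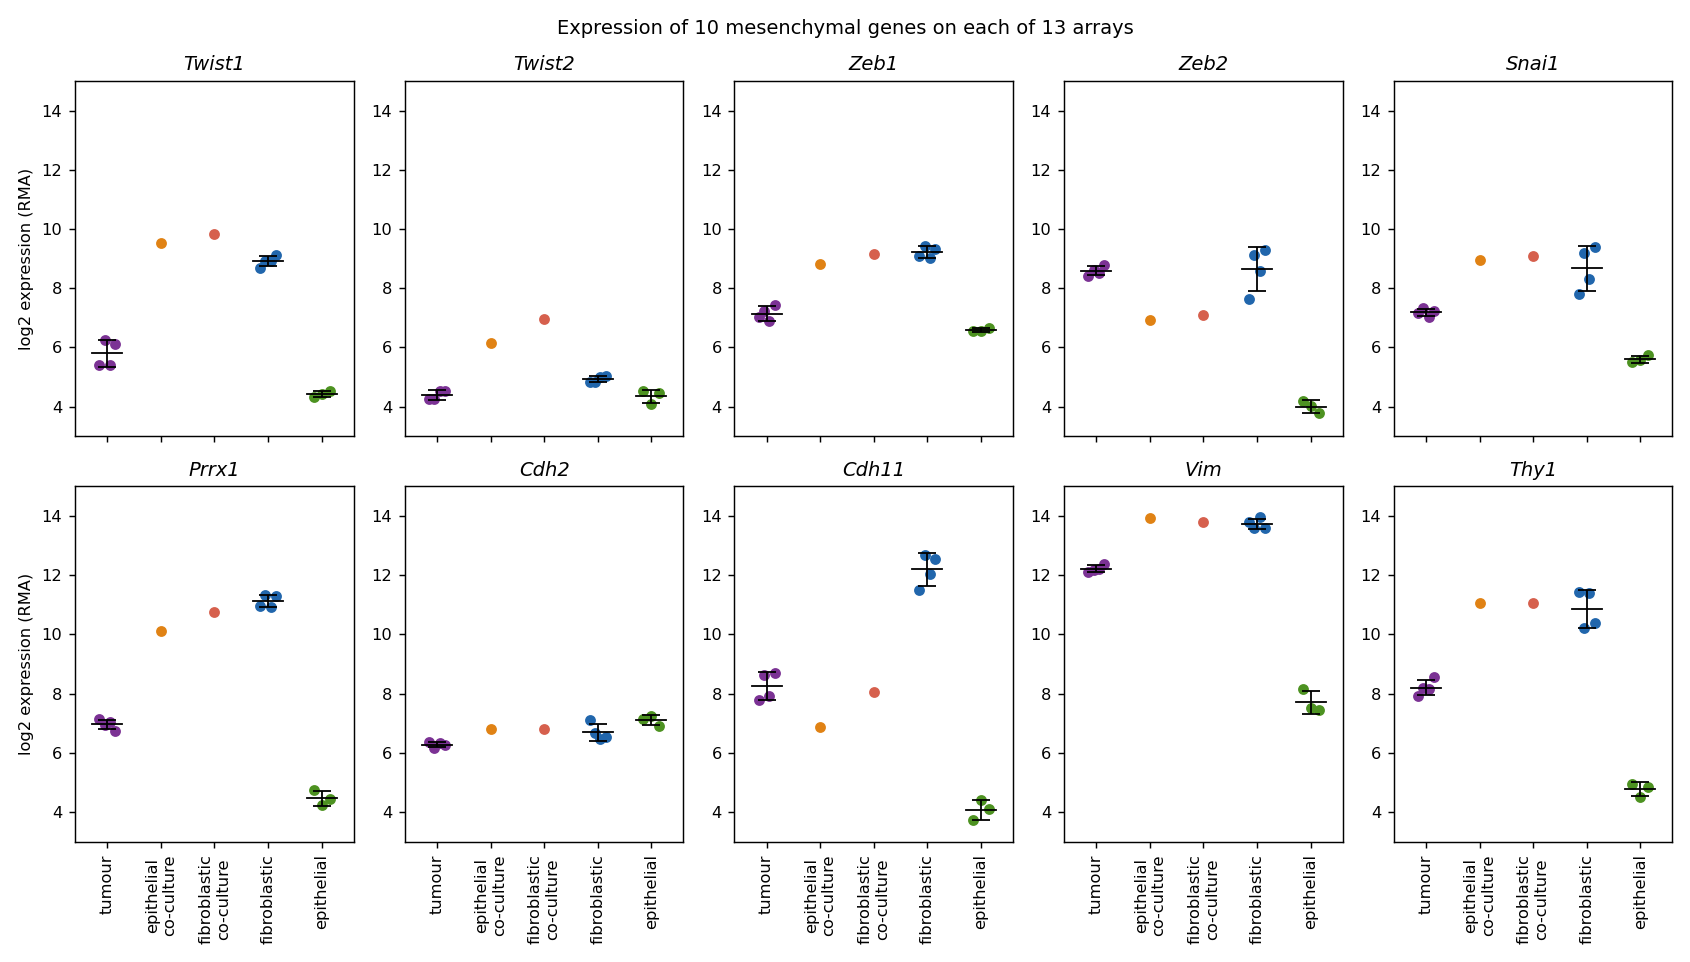
Log2 expression (vertical axis, RMA values) of each of the 10 genes on all 13 arrays, with tumours, the 2 co-culture arrays, the fibroblastic line and the epithelial line along the horizontal axis. Points are arrays, and horizontal bars with whiskers are mean ± SD for the groups of 3 or 4. For 8 genes the 4 fibroblastic arrays lie far above the 3 epithelial arrays, Cdh2 shows no such gap, and Twist2 stands highest on the 2 co-culture arrays.

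The fibroblastic line was higher than the epithelial line in 9 of the 10 genes. Differences were tested with limma on the log2 values and adjusted by Benjamini-Hochberg over all 14217 genes, and a gene was called at an adjusted p under 0.05. This comparison called 37.4% of all genes, 2357 of them higher and 2967 lower in the fibroblastic line. The median difference over the 10 genes was 4.57 on the log2 scale, beside -0.11 over all genes. The uncalled gene was Cdh2, whose probe sets disagreed and are taken up below.

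Twist1, a basic helix-loop-helix factor of mesoderm and neural crest, read 8.68, 8.91, 8.93 and 9.11 in the fibroblastic line, against 4.32, 4.41 and 4.53 in the epithelial line. The groups did not overlap, and the level was 22.4-fold higher in the fibroblastic line (log2 difference 4.49, SE 0.15, limma adjusted p = 3.2e-07). Prrx1 separated the lines further, at 10.96, 11.34, 10.94 and 11.29 in the fibroblastic line and 4.73, 4.23 and 4.44 in the epithelial line. Its difference was 101-fold (log2 6.66, SE 0.18, limma adjusted p = 1.4e-07). The second probe sets of Twist1 and Prrx1 were also called higher but gave smaller log2 differences, 2.49 and 2.82 (limma adjusted p = 1.8e-05 and 5.2e-05). In the epithelial line the means of Twist1, Twist2, Zeb2, Prrx1 and Cdh11 lay below the lower quartile of every array (4.66 to 4.89). The Thy1 mean in that line, 4.77, lay within this range. RMA compresses differences at such levels, so the fold changes of these genes are uncertain in size. Twist2, a close relative of Twist1 in dermal and other mesenchyme, was near the bottom of the scale in both lines, at 4.85, 4.83, 4.99 and 5.05 in the fibroblastic line and 4.51, 4.08 and 4.45 in the epithelial line. Every fibroblastic array was above every epithelial one, by 1.50-fold on average (limma adjusted p = 0.020). That call was lost without epithelial array 2 (log2 0.45, adjusted p = 0.066) and without fibroblastic array 4 (log2 0.54, adjusted p = 0.056).

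Zeb1, a zinc finger and homeobox repressor of Cdh1, read 9.08, 9.44, 9.02 and 9.34 in the fibroblastic line, against 6.56, 6.54 and 6.66 in the epithelial line, a 6.2-fold difference (limma adjusted p = 6.0e-06). Its relative Zeb2 read 7.65, 9.13, 8.57 and 9.28 in the fibroblastic line and 4.20, 4.03 and 3.78 in the epithelial line, 25.2-fold apart (limma adjusted p = 3.9e-05), and of its 5 probe sets the one ranked 5 was not called (log2 0.15). Snai1, the founding Snail repressor of Cdh1, read 7.80, 9.19, 8.30 and 9.38 in the fibroblastic line and 5.50, 5.59 and 5.73 in the epithelial line, 8.34-fold apart (limma adjusted p = 0.00043). None of these 3 genes overlapped between the lines. The share of all genes without overlap, here or in the tumour comparisons, was not counted. Zeb2 and Snai1 varied more among fibroblastic arrays than the other factors did, with SDs of 0.74 and 0.75 against 0.11 to 0.21 for Twist1, Twist2, Zeb1 and Prrx1.

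Because Twist, Zeb and Snai proteins bind E-boxes, the promoters of the factor genes themselves were searched for these letters. RefSeq promoter sequence (build GRCr8, 250 bases before to 50 after the start) matched 7 of the 10 genes, namely Twist1, Twist2, Zeb1, Zeb2, Snai1, Prrx1 and Vim. The E-box core preferred by Snai and Zeb proteins, CAGGTG on either strand, was in 2 of these 7 windows, against 18.7% of 27457 rat promoters of the same length. The looser CANNTG, which includes CAGGTG, was in 3 of 7, against 71.6% of all. The Zeb1 window holds CAGGTG with first bases at -95 and +38 from the start, the Snai1 window holds CACCTG at -142, and the Zeb2 window holds CACATG at -181. A match describes letters only, and no match says nothing about binding. The 2 windows with the CAGGTG core are shown because their genes encode E-box repressors that differed between the lines, with E-boxes in capitals, 5′ to 3′ on the gene's strand. Zeb1 lies on the minus strand at chr17:56810604-56810903 and Snai1 on the plus strand at chr3:176667226-176667525.
Zeb1: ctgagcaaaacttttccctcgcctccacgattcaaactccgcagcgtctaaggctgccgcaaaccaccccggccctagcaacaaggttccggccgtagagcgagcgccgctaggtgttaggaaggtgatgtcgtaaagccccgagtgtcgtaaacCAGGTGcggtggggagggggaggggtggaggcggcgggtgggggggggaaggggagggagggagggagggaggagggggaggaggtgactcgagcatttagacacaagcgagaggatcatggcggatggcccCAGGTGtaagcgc
Snai1: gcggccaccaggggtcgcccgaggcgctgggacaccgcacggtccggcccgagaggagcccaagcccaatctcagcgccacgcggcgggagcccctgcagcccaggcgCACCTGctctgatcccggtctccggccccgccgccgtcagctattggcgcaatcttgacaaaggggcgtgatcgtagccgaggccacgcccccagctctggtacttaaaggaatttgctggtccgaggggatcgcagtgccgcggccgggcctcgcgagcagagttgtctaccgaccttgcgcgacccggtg

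Cdh11, the cadherin of osteoblasts and activated fibroblasts, separated the lines by its standing probe set. It read 11.49, 12.68, 12.05 and 12.56 in the fibroblastic line, against 3.72, 4.40 and 4.10 in the epithelial line, 279-fold apart (log2 8.12, SE 0.31, limma adjusted p = 6.6e-07). Of its other 2 probe sets, the one ranked 3 read 7.13 to 8.39 in the fibroblastic line and 3.55 to 3.78 in the epithelial line and was called in the same direction (log2 4.12). The one ranked 2 was nearly flat at 6.21 to 6.71 in the fibroblastic line and 6.25 to 6.70 in the epithelial line (log2 difference -0.11, limma adjusted p = 0.67).

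For Cdh2, whose protein replaces E-cadherin at mesenchymal contacts, the probe set that stands for the gene went against the other 2. By that probe set it read 7.11, 6.66, 6.47 and 6.54 in the fibroblastic line and 7.15, 7.24 and 6.92 in the epithelial line, a log2 difference of -0.41 that was not called (95% interval -0.85 to 0.03, limma adjusted p = 0.13), although it was called without fibroblastic array 1 (log2 -0.55, adjusted p = 0.036). The probe set annotated to the gene's RefSeq transcript, ranked 3, read 7.32, 6.87, 7.33 and 7.35 in the fibroblastic line, against 3.88, 3.64 and 3.87 in the epithelial line. The probe set ranked 2 read 8.12, 7.0, 7.46 and 7.06 in the fibroblastic line and 4.90, 4.95 and 5.20 in the epithelial line. With every probe set tested on its own, these were higher in the fibroblastic line by 3.42 and 2.39 on the log2 scale (limma adjusted p = 2.7e-06 and 0.00033). So 2 of 3 probe sets of Cdh2 placed it with the other genes, and the one of highest mean did not.

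**Figure D2:**
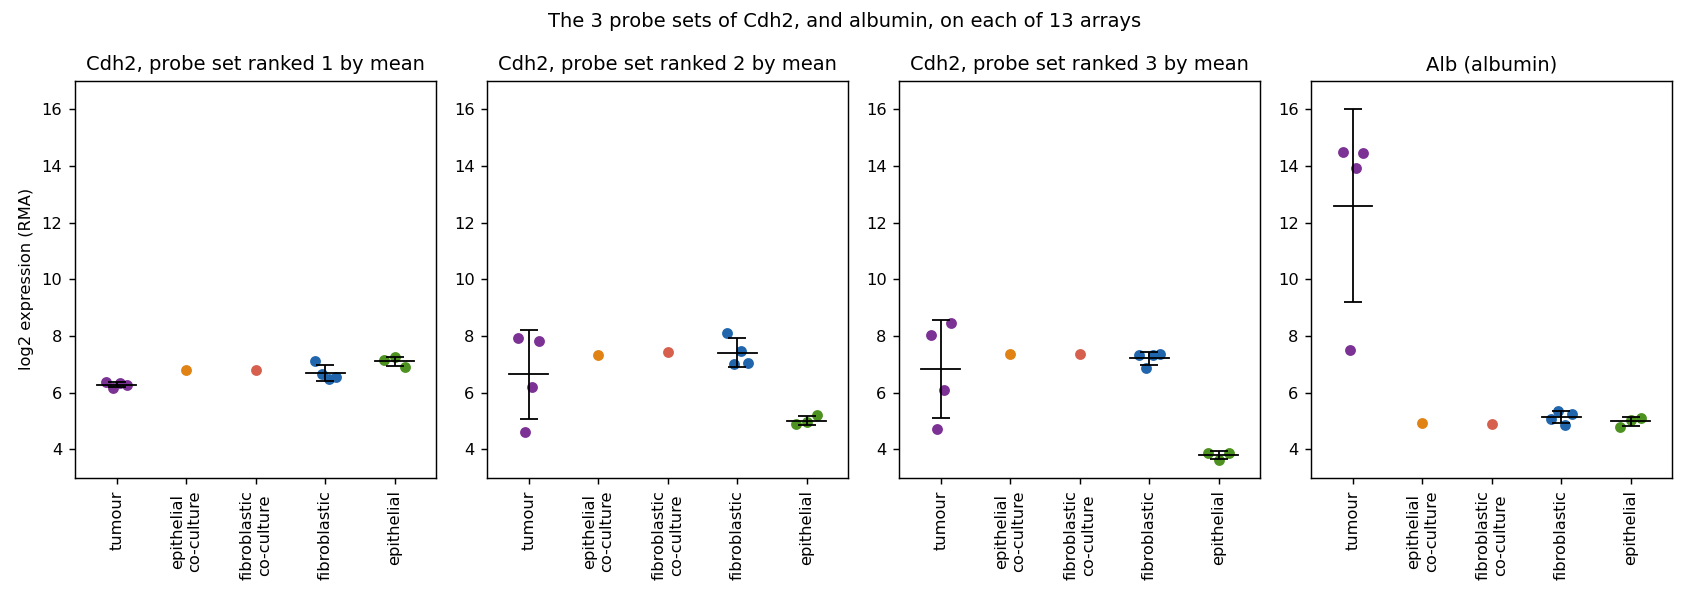
Log2 expression (vertical axis) from each of the 3 Cdh2 probe sets and from albumin on all 13 arrays, by group along the horizontal axis, with mean ± SD for groups of 3 or 4. Probe sets ranked 2 and 3 by mean separate the fibroblastic from the epithelial line and spread widely among the 4 tumours, where tumour 2 is lowest, as it is for albumin. The probe set ranked 1, which stands for the gene, does neither.

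Vim, the main intermediate filament of mesenchymal cells, read 13.80, 13.61, 13.96 and 13.61 in the fibroblastic line, against 8.15, 7.53 and 7.43 in the epithelial line, 65.9-fold apart (log2 6.04, SE 0.21, limma adjusted p = 3.5e-07). Thy1, a surface mark of portal fibroblasts and many mesenchymal cells, read 11.43, 10.23, 11.41 and 10.39 in the fibroblastic line and 4.95, 4.51 and 4.85 in the epithelial line, 68.4-fold apart (log2 6.10, SE 0.34, limma adjusted p = 4.4e-06). Neither gene overlapped between the lines. The second Thy1 probe set was also called higher in the fibroblastic line, by 3.55 on the log2 scale.

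Of the companion lists, the epithelial junction genes were lower in the fibroblastic line in nearly all measured members, while most other mesenchymal factors were not called higher. Of 12 other mesenchymal transcription factors measured, 5 were higher in the fibroblastic line, 1 was lower and 6 were not called, with a median of 0.30 beside -0.11 over all genes. The furthest were Prrx2 (4.03), the orphan nuclear receptor gene Nr2f1 (3.94) and the E-protein gene Tcf4 (3.88), in log2 differences. Of 17 epithelial junction genes known as targets of Snai and Zeb repression, 16 were lower, none was higher, and the median was -5.45. Cdh1, which encodes E-cadherin, read 3.76, 3.58, 4.17 and 4.35 in the fibroblastic line, against 12.55, 12.60 and 12.78 in the epithelial line, a log2 difference of -8.68. Epcam (-8.44) and the tight junction gene Ocln (-6.78) followed it. Of 11 epithelial transcription factors and splicing regulators, 7 were lower and none higher, led by Grhl3 (-5.93), Elf3 (-5.38) and the splicing regulator gene Esrp1 (-5.30). Snai2 and Grhl2 were not analysed here.

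Among other cadherins and the catenins, the lines differed in both directions, in a comparison that called 37.4% of all genes. The called relatives of vimentin and Thy1 were all higher in the fibroblastic line. Of 15 other cadherins and protocadherins, 3 were higher in the fibroblastic line and 4 lower, with Pcdh18 at 5.48 and Cdh13 at 4.40 among the higher, and Cdh1, the desmosomal Dsc2 (-6.81) and Dsg2 (-6.65) the furthest lower. Of 9 catenins and plakophilins, which link cadherins to the cytoskeleton, 3 were higher and 3 lower, from Ctnnd2 at 4.09 to Pkp3 at -3.26. Of 8 other intermediate filaments outside the keratins, Des (desmin, 3.31) and Nes (nestin, 1.64) were higher and none was lower. Of 14 other mesenchymal surface markers, 8 were higher and none lower, led by the PDGF receptor gene Pdgfrb (5.96), the integrin gene Itga1 (5.73) and Pdpn (5.15).

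The tumours lay between the lines for most of the 10 genes. Against the epithelial line, 8 were higher and 1, Cdh2, was lower by its standing probe set but higher by the one on its RefSeq transcript (log2 3.03, limma adjusted p = 0.0056), while the comparison called 52.1% of all genes, 2685 higher and 4722 lower. Against the fibroblastic line, 9 were lower and 1 was not called, while the comparison called 60.9% of all genes, 3888 higher and 4764 lower. The medians over the 10 genes were 2.04 and -1.80 on the log2 scale, beside -0.17 and -0.07 over all genes. Centring the arrays on their medians moved the median of all genes up by 0.20 and 0.19 and changed the split of all calls to 3751 higher and 3431 lower against the epithelial line, and to 5095 higher and 3821 lower against the fibroblastic line. These comparisons and that of the lines share arrays, so their values are given side by side and are not independent of each other. The gap between the 3′ and 5′ control probe sets of beta-actin, a measure of RNA quality and labelling, also differed, at 0.61 to 0.75 in tumours, 0.96 on the epithelial and 0.85 on the fibroblastic co-culture array, 1.04 to 2.65 in the fibroblastic line and 0.86 to 1.47 in the epithelial line, and its part in the tumour and co-culture differences was not tested. In whole tumours, fewer cells of a type and less RNA per cell cannot be told apart.

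**Figure D3:**
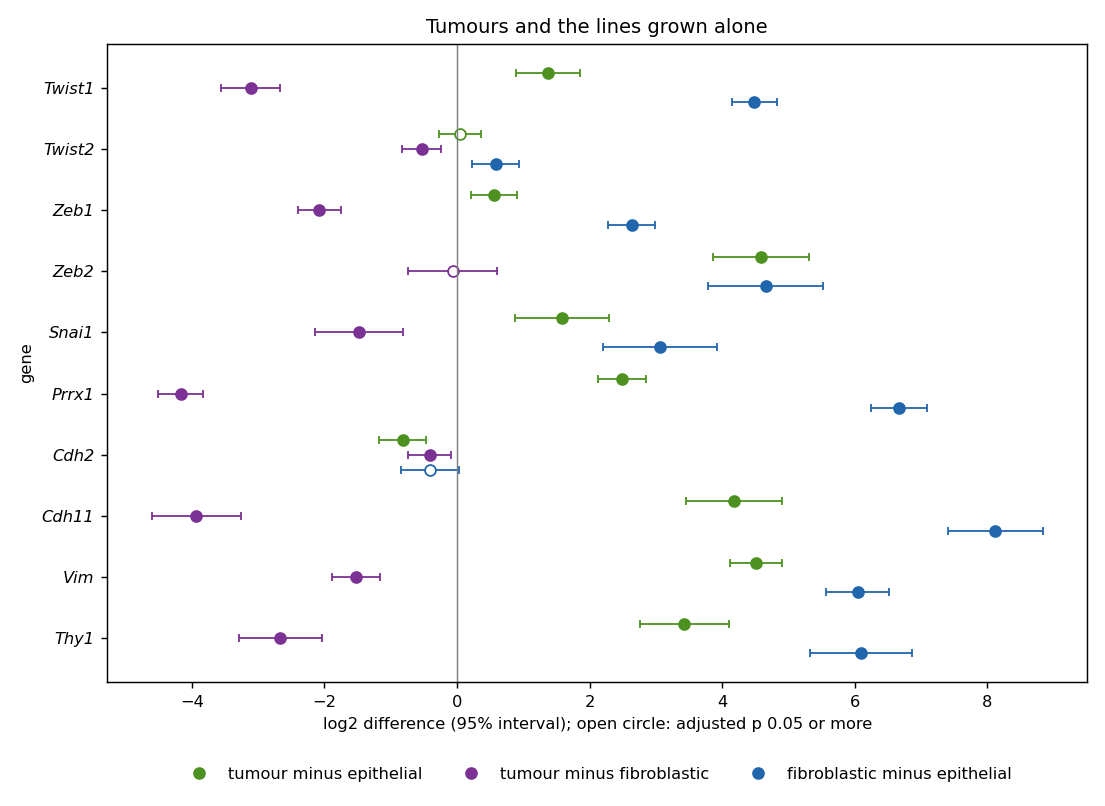
Log2 differences (horizontal axis) of the 10 genes (vertical axis) in tumours minus the epithelial line, tumours minus the fibroblastic line, and the fibroblastic minus the epithelial line. Points are limma estimates, bars are 95% intervals, and open circles mark an adjusted p of 0.05 or more. Tumours are higher than the epithelial line and lower than the fibroblastic line for 7 genes, and Zeb2 is the gene for which tumours and fibroblastic line are closest.

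Among the factors, Twist1 and Prrx1 stood well below the fibroblastic line. Twist1 read 5.42, 6.25, 5.40 and 6.11 in tumours, which was 2.59-fold above the epithelial line (limma adjusted p = 0.00055) and lower than the fibroblastic line by 8.66-fold (log2 -3.11, SE 0.20, limma adjusted p = 5.7e-07). Its second probe set, annotated to the RefSeq transcript, gave -0.29 against the epithelial line, which was not called (limma adjusted p = 0.18), and -2.79 against the fibroblastic line. Prrx1 read 7.13, 6.93, 7.04 and 6.75 in tumours, 5.63-fold above the epithelial line (limma adjusted p = 1.6e-06) and lower than the fibroblastic line by 18.0-fold (log2 -4.17, SE 0.15, limma adjusted p = 1.0e-08). By the standing probe sets of both genes the tumours overlapped neither line. By the second Twist1 probe set the tumours, at 4.46 to 4.96, overlapped the epithelial line, at 4.66 to 5.19. The second Prrx1 probe set gave 0.52 against the epithelial line (limma adjusted p = 0.051). Twist2 read 4.25, 4.25, 4.54 and 4.53 in tumours, overlapping the epithelial line (log2 difference 0.05, 95% interval -0.27 to 0.36) and below every fibroblastic array (log2 -0.54, limma adjusted p = 0.0049).

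Zeb1 and Zeb2 parted in the tumours. Zeb1 read 7.03, 7.22, 6.88 and 7.44 in tumours, just above the epithelial line (1.47-fold, limma adjusted p = 0.013, a call lost without tumours 1 and 4 at adjusted p = 0.082) and lower than the fibroblastic line by 4.22-fold (limma adjusted p = 9.8e-07). Zeb2 read 8.42, 8.62, 8.52 and 8.79 in tumours, which was 24.1-fold above the epithelial line (limma adjusted p = 2.9e-06) and within the range of the fibroblastic arrays. The difference in Zeb2 between tumours and fibroblastic line was -0.07 on the log2 scale with a 95% interval of -0.74 to 0.60, and its sign turned without fibroblastic array 2 (0.09) or array 4 (0.14). Its other 4 probe sets did not give 1 answer against the fibroblastic line: the one ranked 3 was lower in tumours (-0.90, limma adjusted p = 0.024) and the one ranked 5 was higher (1.05, limma adjusted p = 4.0e-05). Zeb2 is also expressed by macrophages, whose 11 markers were all called higher in tumours than in either line (median log2 differences 4.91 and 5.08), and the part of these cells in the Zeb2 level was not tested. Snai1 read 7.16, 7.34, 7.04 and 7.22 in tumours, between the lines without overlap, 3.00-fold above the epithelial line (limma adjusted p = 0.0024) and lower than the fibroblastic line by 2.78-fold (limma adjusted p = 0.0016).

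Of the cadherins, Cdh11 read 7.78, 8.64, 7.91 and 8.70 in tumours, 18.2-fold above the epithelial line (limma adjusted p = 5.6e-06) and lower than the fibroblastic line by 15.3-fold (log2 -3.94, SE 0.30, limma adjusted p = 1.8e-06). The tumours overlapped neither line. By the probe set ranked 3, tumours read 3.84 to 4.06, lower than the fibroblastic line by 3.90 on the log2 scale and not called against the epithelial line (limma adjusted p = 0.50). The probe set ranked 2 went the other way from both against the fibroblastic line, called higher in tumours (log2 0.76, limma adjusted p = 0.0010). It was also called higher than in the epithelial line (log2 0.64, limma adjusted p = 0.0058). Cdh2 by its standing probe set read 6.36, 6.15, 6.33 and 6.28 in tumours, lower than the epithelial line (log2 -0.82, limma adjusted p = 0.0019) and lower than the fibroblastic line (log2 -0.41, limma adjusted p = 0.033). The second of these calls was lost with median centring (log2 -0.23) and when any 1 of tumours 1 to 4 or fibroblastic arrays 1 and 2 was left out, with adjusted p between 0.050 and 0.082.

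The other 2 Cdh2 probe sets went against that direction and varied widely among the tumours. Against the epithelial line, the one on the RefSeq transcript was called higher (log2 3.03, SE 0.72, limma adjusted p = 0.0056), the one ranked 2 was not called (1.63, adjusted p = 0.066), and the mean of both was called higher (2.33, adjusted p = 0.016). Against the fibroblastic line neither was called (-0.39 and -0.76, limma adjusted p = 0.63 and 0.31). The one on the RefSeq transcript read 8.05, 4.73, 6.09 and 8.44 in tumours 1 to 4, and the one ranked 2 read 7.92, 4.62, 6.21 and 7.83. The order of tumours 2, 3 and the pair of 1 and 4 was that of the hepatocyte markers, whose mean is given above, and of albumin (Alb), which read 14.51, 7.50, 13.94 and 14.46 in tumours 1 to 4. Hepatocytes are known to carry N-cadherin at their junctions, and the part of hepatocyte RNA in these values was not tested. In tumour 2, where Alb was lowest, these probe sets read 4.73 and 4.62, against 3.64 to 3.88 and 4.90 to 5.20 in the epithelial line and 6.87 to 7.35 and 7.0 to 8.12 in the fibroblastic line.

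Vim and Thy1 were higher in tumours than the epithelial line and lower than the fibroblastic line, with no overlap. Vim read 12.11, 12.18, 12.20 and 12.39 in tumours, 22.9-fold above the epithelial line (limma adjusted p = 2.7e-08) and lower than the fibroblastic line by 2.88-fold (limma adjusted p = 2.2e-05). Thy1 read 7.93, 8.18, 8.15 and 8.55 in tumours, 10.8-fold above the epithelial line (limma adjusted p = 1.4e-05) and lower than the fibroblastic line by 6.34-fold (limma adjusted p = 1.9e-05). With tumour 2, the one lowest in hepatocyte markers, as the only tumour, the limma calls were lost for Zeb1 (log2 0.63), Snai1 (1.73) and Cdh2 (-0.95) against the epithelial line and for Twist2 (-0.67), Snai1 (-1.33) and Cdh2 (-0.54) against the fibroblastic line, each with its direction kept. By the second Thy1 probe set the tumours read 7.74 to 8.30 and the fibroblastic arrays 7.48 to 9.47, which overlap, and the difference was not called (log2 -0.46, limma adjusted p = 0.36).

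Fibroblast markers did not share 1 direction between tumours and the fibroblastic line. The 8 markers averaged 11.01 to 11.39 in tumours and 10.71 to 10.96 in the fibroblastic line, with 2 called higher in tumours and 5 lower, and a median of -1.41. The matrix proteoglycan genes Lum and Dcn read 11.27 to 12.12 and 11.76 to 12.59 in tumours, against 3.52 to 5.34 and 4.26 to 6.84 in the fibroblastic line. Col1a1 read 11.35 to 12.18 in tumours and 13.43 to 13.96 in the fibroblastic line, and Acta2, the α-SMA gene, read 9.95 to 10.40 in tumours and 9.29 to 12.13 in the fibroblastic line. Lum read 3.57 and 3.52 on fibroblastic arrays 1 and 3, against 3.51 to 3.60 in the epithelial line, so this defining fibroblast marker was at the level of epithelial cells in part of the clone's arrays.

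The companion lists in tumours followed both lines in part, beside calls for 60.9% of all genes against the fibroblastic and 52.1% against the epithelial line. Of the 12 other mesenchymal factors, 7 were lower in tumours than in the fibroblastic line and 2 higher, with Nr2f1 (-3.73), Prrx2 (-3.40) and Foxf1 (-2.69) furthest. Against the epithelial line 5 were higher and 2 lower, with Osr2 (-2.13), Tcf4 (2.01) and Hand2 (1.30) furthest. Of the 17 junction genes, 16 were higher in tumours than in the fibroblastic line and 1 lower, and against the epithelial line 9 were lower and none higher, with a median of -0.90. Cdh1 read 11.13, 11.78, 11.82 and 11.21 in tumours, higher than the fibroblastic line by 7.52 and below the epithelial line (log2 difference -1.16). Esrp1 was called the same way, at 4.45 and -0.86. Of the 11 epithelial factors and splicing regulators, 9 were higher than in the fibroblastic line and none lower, and 5 were lower and 1 higher than in the epithelial line.

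Other cadherins of the tumours included Cdh17, a liver-intestine cadherin, at 7.60 above the fibroblastic and 3.56 above the epithelial line in log2 differences. Of the 15 other cadherins and protocadherins, 5 were higher and 4 lower than in the fibroblastic line, and 4 were higher and 4 lower than in the epithelial line. Of the 9 catenins and plakophilins, 2 were higher and 3 lower than in the fibroblastic line, and 3 were higher and 5 lower than in the epithelial line. Of the 8 other intermediate filaments, 2 were higher and 3 lower than in the fibroblastic line, with Des at -1.52, and 4 were higher and none lower than in the epithelial line, with Des at 1.79. Of all genes, 60.9% were called against the fibroblastic and 52.1% against the epithelial line. The cadherin and filament counts were near these shares and do not set those families apart. Nor does the catenin count against the fibroblastic line. Of the 14 surface markers, 4 were higher than in the fibroblastic line, led by Vcam1 (2.53), and 9 were lower, led by Pdgfrb (-3.54) and Mcam (-2.42). Against the epithelial line 10 were higher and 3 lower, with Nt5e (5.48), Vcam1 (4.27) and Itga1 (3.94) furthest.

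On the epithelial co-culture array, 9 of the 10 genes were higher than in the epithelial line grown alone, in a comparison that called 7.24% of all genes, 692 higher and 337 lower. A single array stands on 1 side, and its spread was assumed to be that of the replicated lines. The array carried the fibroblast marker Col1a1, as given above, so the part of fibroblastic RNA in these differences cannot be told apart from a change in epithelial cells. Thy1 read 11.07 on the array (78.7-fold above the epithelial line, limma adjusted p = 0.00020), Vim 13.92 (74.5-fold, limma adjusted p = 2.1e-05) and Prrx1 10.10 (49.6-fold, limma adjusted p = 2.0e-05). Twist1 read 9.53 (34.6-fold, limma adjusted p = 1.1e-05), Snai1 8.96 (10.2-fold, limma adjusted p = 0.011) and Zeb1 8.82 (4.70-fold, limma adjusted p = 0.00081). Zeb2 read 6.91 (7.53-fold, limma adjusted p = 0.021), a call lost without epithelial array 2 or 3 (adjusted p = 0.051 each) and not made by any of its other 4 probe sets (log2 0.0024 to 1.44). Cdh11 read 6.88 (6.98-fold, limma adjusted p = 0.011) and Twist2 6.14 (3.46-fold, limma adjusted p = 0.0031). The other Cdh11 probe sets gave 0.27 and 0.13, and neither was called. Cdh2 was not called at 6.80 by its standing probe set (log2 -0.30, 95% interval -0.96 to 0.36), but its other 2 probe sets were higher, by 3.56 and 2.32.

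Against the fibroblastic line, which these genes mark, the same array was higher in Twist2 and lower in Cdh11 and Prrx1. This comparison, added after the data were seen, called 11% of all genes, 795 higher and 765 lower. Twist2 was 2.31-fold higher (limma adjusted p = 0.013), Cdh11 was lower by 39.9-fold (log2 -5.32, SE 0.45, limma adjusted p = 0.00035), and Prrx1 was lower by 2.04-fold (limma adjusted p = 0.046). The Prrx1 call was lost without any 1 of fibroblastic arrays 1 to 4 or epithelial arrays 2 and 3, with adjusted p between 0.051 and 0.093, and under quantile normalization (adjusted p = 0.091), and its second probe set gave 0.36. The log2 difference of Zeb2 was -1.74 (95% interval -3.01 to -0.48, limma adjusted p = 0.089), which was called without fibroblastic array 1 (-2.08, adjusted p = 0.0099).

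On the fibroblastic co-culture array, 3 of the 10 genes were called against the fibroblastic line grown alone, in a comparison that called 8.41% of all genes, 679 higher and 516 lower. Twist2 read 6.97, above all 4 fibroblastic arrays, and was 4.13-fold higher (log2 2.05, SE 0.23). Its log2 difference stayed between 1.79 and 2.09 in the 15 alternatives run on it. The setting that left out the lowest 25% of genes dropped Twist2 and so did not examine it. Twist1 read 9.82, also above all 4, and was 1.88-fold higher (log2 0.91, SE 0.22, limma adjusted p = 0.041). That call was lost without any 1 of the 7 arrays of the lines grown alone (log2 0.83 to 0.97, adjusted p = 0.054 to 0.075) and in 4 other settings, with adjusted p between 0.062 and 0.10, and the second Twist1 probe set gave 0.75 (limma adjusted p = 0.13). Cdh11 read 8.07, below all 4 fibroblastic arrays, and was lower by 17.5-fold (log2 -4.13, SE 0.45, limma adjusted p = 0.0014), and its probe set ranked 3, at 3.98, was lower by 3.84 on the log2 scale. The Cdh11 probe set ranked 2 gave 0.0046 here and 0.38 for the other co-culture array, and neither was called.

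The remaining 7 genes were not called on the fibroblastic co-culture array. Zeb2 read 7.10, below all 4 fibroblastic arrays (log2 -1.56, 95% interval -2.83 to -0.29, limma adjusted p = 0.14), and was called without fibroblastic array 1 (-1.90, adjusted p = 0.016) and by its probe set ranked 2 (-2.85, adjusted p = 0.0089). Snai1 read 9.07 (log2 0.41, 95% interval -0.85 to 1.67), Zeb1 9.17 (-0.05, -0.56 to 0.47) and Prrx1 10.77 (-0.36, -0.98 to 0.25). Vim read 13.79 (0.05, 95% interval -0.65 to 0.74), Thy1 11.07 (0.20, -0.93 to 1.34) and Cdh2 6.79 (0.10, -0.55 to 0.74). These intervals span several-fold differences for Snai1 and Thy1, so the single array leaves their change in co-culture poorly bounded.

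**Figure D4:**
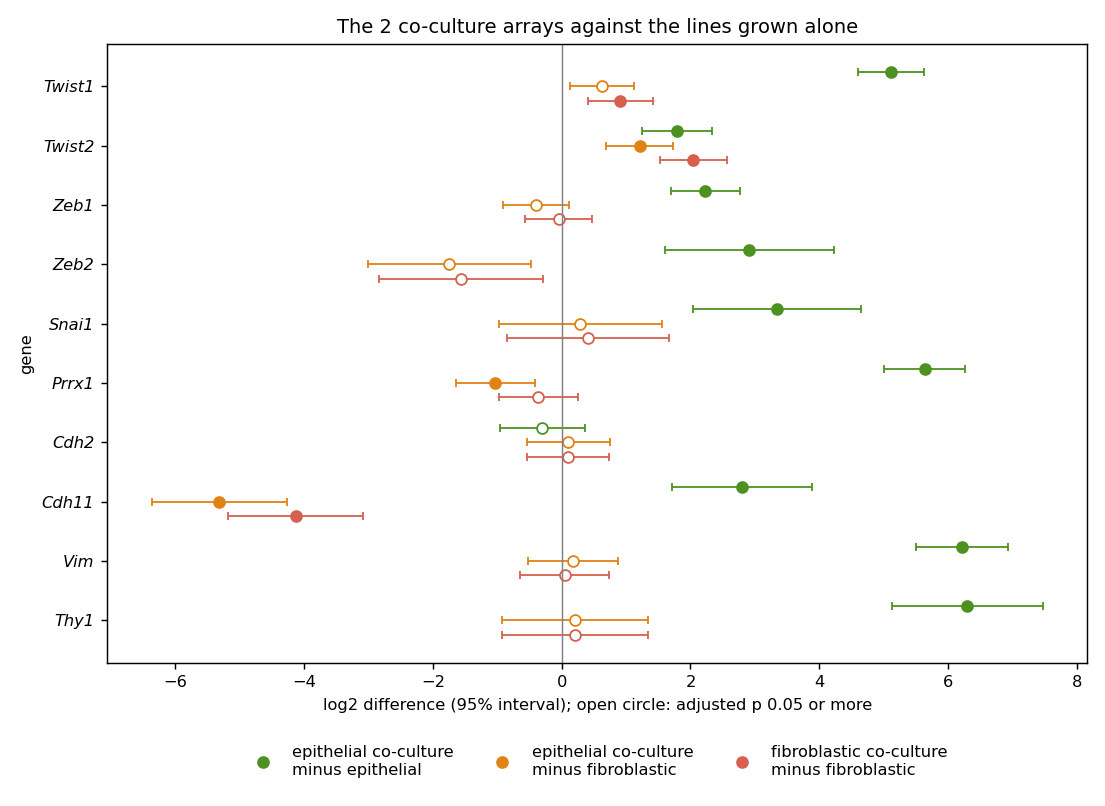
Log2 differences (horizontal axis) of the 10 genes (vertical axis) for the epithelial co-culture array minus the epithelial line, the same array minus the fibroblastic line, and the fibroblastic co-culture array minus the fibroblastic line. Points are limma estimates, bars are 95% intervals, and open circles mark an adjusted p of 0.05 or more. Against the fibroblastic line both co-culture arrays are lower for Cdh11 and higher for Twist2, with intervals clear of 0.

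The fibroblast content of the co-culture arrays can be set beside each gene on a linear scale, with the mean of the epithelial line at 0% and the mean of the fibroblastic line at 100%. Of the 10 genes, 7 were at least 8-fold apart between the lines and could be placed. Twist1 stood at 156% on the epithelial and 191% on the fibroblastic co-culture array, above the 84.5% to 115% of the fibroblastic arrays themselves. Snai1 stood at 113% and 123%, Vim at 113% and 103%, and Thy1 at 107% on both, all within the range of the fibroblastic arrays. Prrx1 stood at 48.0% and 76.9%, Zeb2 at 24.6% and 28.4%, and Cdh11 at 2.04% and 5.12%, all below the lowest fibroblastic array by these probe sets. The second Prrx1 probe set placed the co-culture arrays otherwise, at 8.34 on the epithelial and 8.82 on the fibroblastic one, against 7.57 to 8.43 in the fibroblastic line.

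For comparison, Col1a1 stood at 45.8% and 61.6% on the epithelial and the fibroblastic co-culture array, Col1a2 at 53.3% and 62.5%, and Krt19, which is high in the epithelial line, at 33.2% and 45.3%. Other genes high in the epithelial line gave other positions, Epcam at -0.24% and 29.7% and Cdh1 at 42.4% and 34.9%. Cdh1 ordered the 2 arrays the other way from Krt19 and Epcam. The fibroblast gene Postn stood at 10.7% and 7.16%, against 95.9% to 104% on the fibroblastic arrays. Acta2 stood at 2.08% and 15.8%, but the fibroblastic arrays themselves ran from 19.5% to 173%. The fibroblastic co-culture array was thus close to the lowest fibroblastic array for Acta2. Values from RMA are not proportional to RNA at the ends of the scale, and probe sets differ in this, so the percentages neither count cells nor rank genes.

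**Figure D5:**
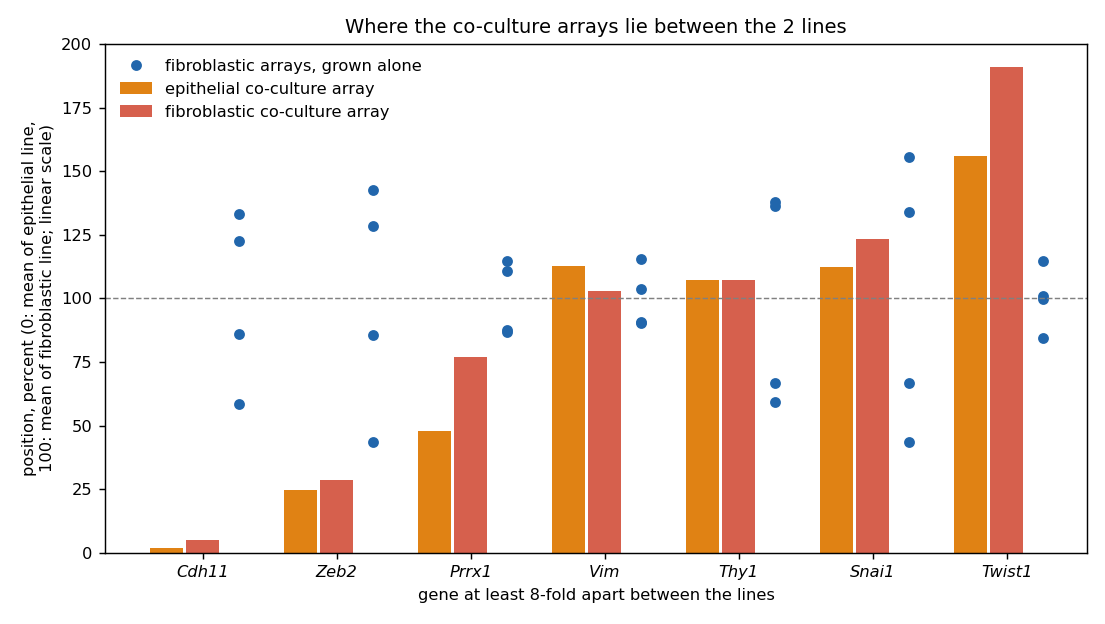
Position of the 2 co-culture arrays (bars) and of the 4 fibroblastic arrays grown alone (points) between the mean of the epithelial line (0%) and the mean of the fibroblastic line (100%, dashed), in percent on a linear scale, for the 7 genes at least 8-fold apart. By the probe sets shown, Cdh11 and Zeb2 lie below 30% on both co-culture arrays, and Twist1 lies above 150% on both, while the second Prrx1 probe set placed Prrx1 within or above the range of the fibroblastic arrays.

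The change from line alone to co-culture differed between the 2 labelled cell types for 7 of the 10 genes, each lower in the fibroblastic than in the epithelial response, in a test that called 8.43% of all genes. The log2 differences between the responses were -6.93 for Cdh11, -6.17 for Vim, -6.10 for Thy1 and -6.00 for Prrx1. They were -4.47 for Zeb2, -4.20 for Twist1 and -2.28 for Zeb1. Other probe sets gave -0.26 and -3.97 for Cdh11, -3.74 for Thy1, -2.34 for Prrx1 and -2.00 for Twist1. Those of Zeb2 ran from -4.29 to -0.30. Cdh2 gave 0.40 by its standing probe set but -2.30 and -3.40 by the others, so the count of 7 depends on the probe set. Snai1 at -2.94 missed the threshold (limma adjusted p = 0.061) and passed it without fibroblastic array 1 (-3.23, adjusted p = 0.017). Twist2 did not differ detectably between the responses (log2 0.25, 95% interval -0.50 to 1.01). Each value is the difference between the co-culture arrays minus that between the lines, so it largely repeats the difference between the lines where both co-culture arrays carry both cell types.

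The companion lists on the co-culture arrays held genes of both lines. Against its own line, the epithelial co-culture array called 7.24% of all genes and the fibroblastic one 8.41%. On the epithelial co-culture array 0 of the 17 junction genes were called by limma against the epithelial line (median log2 difference -0.89, with 7 at an unadjusted p under 0.05), while on the fibroblastic co-culture array 15 were higher than in the fibroblastic line and none lower, led by Cdh1 (8.07), Epcam (7.95) and Ocln (5.77). Of the 11 epithelial factors and splicing regulators, 2 were lower than in the epithelial line, Grhl3 (-1.78) and Ehf (-1.62), and 5 were higher than in the fibroblastic line, led by Elf3 (4.57), Esrp1 (4.34) and Grhl3 (3.78). Of the 12 other mesenchymal factors, Prrx2 (5.37) and Tcf4 (2.03) were higher than in the epithelial line, and Nr2f1 (-3.96) and Foxf1 (-1.86) were lower than in the fibroblastic line. Prrx2, the paralogue of Prrx1, read 10.44 on the epithelial and 10.29 on the fibroblastic co-culture array, above the 8.28, 9.46, 9.16 and 9.47 of the fibroblastic line, but neither difference from that line was called (log2 1.34 and 1.20, limma adjusted p = 0.095 and 0.15).

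Among surface markers, 6 of 14 were higher on the epithelial co-culture array than in the epithelial line, led by Nt5e (6.30), Pdpn (4.74) and Itga1 (3.52), with Pdgfrb at 3.43. On the fibroblastic co-culture array 1 was higher than in the fibroblastic line, Nt5e (2.51), and 3 were lower, Mcam (-4.07), Pdgfrb (-2.60) and Itga1 (-2.60). Of the 15 other cadherins and protocadherins, Cdh13 (2.21) was higher and Dsg2 (-1.18) lower than in the epithelial line, and Cdh1, Dsc2 (5.91) and Dsg2 (5.66) were higher and Pcdh18 (-3.81) and Cdh13 (-2.59) lower than in the fibroblastic line. Of the 9 catenins and plakophilins, Ctnnd2 was the gene called, higher than in the epithelial line (2.67) and lower than in the fibroblastic line (-2.19). Of the 8 other intermediate filaments, Des (4.16), Prph (2.33) and Nes (2.03) were higher than in the epithelial line, and Prph (2.31), which encodes peripherin, was higher than in the fibroblastic line.

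The 4 fibroblastic arrays were not alike in these genes. Arrays 2 and 4 stood above arrays 1 and 3 for Zeb2, Snai1, Cdh11, Prrx1 and Zeb1, and below them for Thy1 and Vim. The same arrays read 9.29 and 10.29 for Acta2, against 12.13 and 12.04 on arrays 1 and 3, and 6.84 and 6.53 for Dcn, against 4.34 and 4.26. The beta-actin gap given above was 2.65 and 2.01 on arrays 2 and 4, against 1.72 and 1.04 on arrays 1 and 3, and its part in these differences was not tested. Leaving both arrays out kept the call and direction of every one of the 10 genes between the lines except Twist2 (log2 0.57, adjusted p = 0.071).

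Correlations over the 13 arrays describe which genes ran most alike across groups, with cell type and array shared by all points. Twist1, Zeb1, Snai1 and Prrx1 correlated with each other at Pearson r of 0.92 to 0.98. Vim and Thy1 correlated at 0.97, and Zeb2 correlated with Vim at 0.86 and with Twist1 at 0.55. Outside the 10 genes, the 2 genes most like each were Nol3 (0.989) and Zfp955a (0.982) for Twist1, Mafa (0.959) and Gprc5b (0.941) for Twist2, and Bend6 (0.993) and Rab34 (0.988) for Zeb1. Gpnmb (0.982) and Wipf1 (0.974) ran most like Zeb2, Fmnl3 (0.985) and Olfml3 (0.981) like Snai1, and Bex3 (0.991) and Jam3 (0.990) like Prrx1. Dnajc27 (0.992) and Cmtm3 (0.985) ran most like Cdh11, Lgals1 (0.998) and Pxdn (0.998) like Vim, and Vldlr (0.989) and Ckap4 (0.986) like Thy1. Gpnmb, the gene nearest to Zeb2, encodes a glycoprotein abundant in macrophages. Zeb2 averaged 8.66 in the fibroblastic line too, where the macrophage markers averaged only 4.62 to 4.78. Which cells lie behind this likeness was not tested. For the standing Cdh2 probe set the nearest were C3h20orf144 (0.959) and Nalf1 (0.942).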

How the data were processed

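Total RNA of 13 rat samples was labelled with biotin and hybridized to single-colour Affymetrix arrays, and the authors deposited log2 expression values made by RMA, per the labels and the submitters' processing notes. The log2 scale was taken from their range (2.94 to 14.69). Which arrays RMA took together was not given in the sources used here, and the method compresses differences near the bottom of the scale. Of 31099 probe sets, 20826 named a single gene in GEO's platform annotation, with symbols updated through RefSeq. The values were used as deposited in limma 3.58.1 (R 4.3.3), with group means, moderated variances, two-sided tests and adjustment over all 14217 genes. A fit of 9 arrays held lines and co-cultures, and a fit of 11 held tumours and lines. A simulation with independent noise changed 100 genes by 1 log2 unit and 100 by 2, among 14217, far fewer than the data called. With so few changed genes the adjusted threshold is stricter, so the recoveries below do not give the power of the tests on these data. In simulated data the fits recovered 88 of 100 genes changed by 2 log2 units between the lines, 96 and 92 in the tumour comparisons with the epithelial and the fibroblastic line, and 62 and 69 for the epithelial and fibroblastic co-culture arrays. At 1 log2 unit these recoveries were 34 for the lines, 52 and 54 for tumours, and 8 and 8 for the co-culture arrays. The epithelial co-culture minus fibroblastic line recovered 50 at 2 units and 11 at 1. The difference in response recovered 24 and 0.

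The genes, companion lists, cell type markers and tests were chosen with earlier results of these data known. Of the companion lists, the 3 called genes furthest from 0 are named, with a set of marker genes and the 2 genes of highest Pearson r per gene. Lum, Dcn, Col1a2, Postn, Pcdh18, Cdh13, Nt5e and Prrx2 in co-culture were named after their values were seen. Alternatives were a single fit, only the groups compared, quantile normalization, median centring, leaving out the lowest 25% of genes, other summaries of probe sets, trended and robust moderation, array weights, each array or named arrays left out, and a replicate block. Added after seeing the data were Cdh2 by its other 2 probe sets and the epithelial co-culture array against the fibroblastic line. Promoters are from RefSeq (GRCr8). Tables were made with pandas 2.3.3 and numpy 2.4.6 in Python 3.11.15, and plots with matplotlib 3.10.9.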

Additional observations from a re-analysis of the deposited data

Results flagged for a closer look

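In 48 groups of 4 arrays examined for a sample far from the others, 3 had one, and chance alone gives about 1 in 20. Alb in tumour 2 was far below the other tumours (7.50, against 13.94 to 14.51), as was Des in tumour 2 (7.62, against 8.14 to 8.22). The Cdh2 probe set on the RefSeq transcript was lowest on fibroblastic array 2 (6.87, against 7.32 to 7.35 on the other fibroblastic arrays).

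The response to co-culture differed between the fibroblastic and the epithelial labels, by the limma test of the difference itself, for Cdh11 (-6.93), Vim (-6.17), Thy1 (-6.10), Prrx1 (-6.00), Zeb2 (-4.47), Twist1 (-4.20) and Zeb1 (-2.28), in log2 units of fibroblastic minus epithelial response. The other probe sets of Cdh11, Thy1, Prrx1, Zeb2 and Twist1 gave smaller differences, as given above. Both co-culture arrays carried Krt19 and Col1a1 at levels far above the line that lacks each, so a change within 1 cell type cannot be told apart from the other type's RNA.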

How the results depend on the processing

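Of 70 results on single genes, 44 kept their direction and their side of the threshold in every alternative of fit, scaling and arrays, and the number of the 10 genes called stayed within 6 to 10 in the 3 comparisons without co-culture. By all genes, calls came to 1958 (tumours minus epithelial line) and 3912 (tumours minus fibroblastic line) with tumour 2 as the only tumour, to 4549 against the epithelial line without tumours 1 and 4, settings that use fewer samples, and to 1743 for the epithelial co-culture in a single fit of all 13 arrays, where the cause was not tested.

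Most reversals came from probe sets. Cdh2 by the mean of its probe sets, by those ranked 2 and 3 and by the other 2 together gave 1.80, 2.39, 3.42 and 2.91 between the lines, 1.28, 1.63, 3.03 and 2.33 for tumours minus epithelial line, 1.86, 2.32, 3.56 and 2.94 for the epithelial co-culture minus epithelial line, and -1.77, -2.30, -3.40 and -2.85 for the difference in response. The probe set ranked 2 gave -0.29 for Twist1 in tumours minus epithelial line. For Cdh11 it gave -0.11 between the lines, 0.76 for tumours minus fibroblastic line, and 0.0046 and 0.38 for the fibroblastic and the epithelial co-culture minus fibroblastic line. For Prrx1 in those 2 comparisons it gave 0.84 and 0.36, and the mean of the probe sets gave 0.24 in the first. For Cdh2 it gave -0.074 in the second. For Zeb2 in tumours minus fibroblastic line, probe sets ranked 4 and 5 gave 0.38 and 1.05.

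Uncalled values near 0 also changed sign. Quantile normalization gave -0.25 for Twist2 in tumours minus epithelial line, 0.26 for Zeb2 in tumours minus fibroblastic line, and -0.022 and -0.00020 for Cdh2 on the fibroblastic and the epithelial co-culture arrays minus fibroblastic line. Median centring gave 0.12 for Zeb2, and tumour 2 as the only tumour gave -0.091 for Twist2. Without fibroblastic arrays 2 and 4, Zeb2 gave 0.48 in tumours minus fibroblastic line, and on the fibroblastic co-culture array Zeb1 gave 0.12, Vim -0.089 and Thy1 -0.35, with Thy1 also at -0.35 on the epithelial one. Leaving out 1 array at a time gave -0.086 to 0.13 for Twist2 in tumours minus epithelial line, -0.40 to 0.14 for Zeb2 in tumours minus fibroblastic line, -0.11 to 0.027 for Zeb1 and -0.0095 to 0.39 for Thy1 on the fibroblastic co-culture array, and -0.0089 to 0.39 for Thy1 on the epithelial one, both minus fibroblastic line. The causes were not tested.

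Replicate numbers did not detectably pair the samples (correlations of same-numbered deviations -0.15 to 0.14, of different-numbered ones -0.19 to 0.20). With so few arrays of unlike cells, a source shared by same-numbered arrays could have gone unseen, and the labels do not give one. With the replicate number as a block, 8, 9 and 9 of the 10 genes were called for the lines, tumours minus epithelial and tumours minus fibroblastic line, and Twist2 between the lines lost its call (0.54, adjusted p = 0.076). No paired analysis was possible for the co-cultures because each has 1 array.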
